A study of Drosophila melanogaster with 3 samples.

Results

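Chromatin immunoprecipitation sequencing (ChIP-seq) of the zinc finger protein Plzf gave 7096 peaks that passed selection by the irreproducible discovery rate (IDR), and 1346 of them (19.0%) had a summit upstream of coding promoters that all pointed one way. These peaks were chosen by position: protein-coding transcription start sites (TSSs) of any annotated transcript lay within 500 bp of the summit on 1 strand only, and the nearest of them lay downstream of the summit in the direction of transcription. Of the other IDR peaks, 735 had coding TSSs on both strands within 500 bp (divergent promoters), 328 lay downstream of a one-strand TSS, 3 lay on such a TSS, and 4684 had no coding TSS in that window. In the replicates' own lists, cut to their 7096 regions of highest signal, of which 7096, 7090 and 7096 lay on the chromosome arms, the same rule selected 1362, 1382 and 1388 regions in replicates 1, 2 and 3, a share of 19.4% ± 0.195 (SD, n = 3).

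All 3 samples were biological replicates of 1 group. They came from whole prepupae, male and female pooled, of the transgenic strain CG6792-GFP, in which a C-terminal GFP is fused to Plzf. The description in the labels gives an anti-GFP immunoprecipitation, while the antibody field names CG6792, the gene symbol of Plzf. No second condition and no untagged animals were analysed here. The values average all tissues of the prepupa, and neither the age nor the number of animals pooled is given in the labels.

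Plzf is named after the mammalian promyelocytic leukaemia zinc finger protein, a sequence-specific regulator of transcription. A coding promoter carries short elements at fixed distances around the TSS, such as the TATA box, the initiator and the downstream promoter element, and many fly housekeeping promoters instead use the DNA replication-related element (DRE), the BEAF-32 box or the TCT initiator of translation genes. DNA just upstream of a TSS is often depleted of nucleosomes and is where many regulators are recovered by ChIP. Prepupae form during a pulse of the steroid ecdysone, which switches on a cascade of transcription factor genes.

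The following windows of 50 bp on each side of the summit show the DNA under peaks that held a motif described below. They are given 5′ to 3′ on the coding strand of the gene, from the dm6 assembly. The windows of CG14100 (chr3L:19590570-19590670), CG31145 (chr3R:23669800-23669900), ph-p (chrX:2137261-2137361), app (chr3L:12266971-12267071), Eip74EF (chr3L:17619548-17619648) and p53 (chr3R:23054054-23054154) are on the minus strand, and those of CG18549 (chr3R:12449127-12449227) and eEF1gamma (chr3R:29220084-29220184) on the plus strand. Capitals mark the 7-mers TCTTAAA and TAATATA and the BEAF-32 box CGATA, on either strand. None of these was held by the windows of Ugalt, the strongest peak, or of larp, Hsp27, gish, CG13921 and Gapdh2, which are not shown.
CG14100: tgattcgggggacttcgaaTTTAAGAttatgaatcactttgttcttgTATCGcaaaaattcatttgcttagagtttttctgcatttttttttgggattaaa
CG31145: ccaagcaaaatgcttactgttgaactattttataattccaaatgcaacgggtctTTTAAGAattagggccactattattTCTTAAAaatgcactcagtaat
ph-p: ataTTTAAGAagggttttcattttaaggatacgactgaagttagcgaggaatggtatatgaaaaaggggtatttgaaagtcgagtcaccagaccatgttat
app: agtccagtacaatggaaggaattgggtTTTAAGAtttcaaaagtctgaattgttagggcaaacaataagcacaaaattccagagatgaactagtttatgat
CG18549: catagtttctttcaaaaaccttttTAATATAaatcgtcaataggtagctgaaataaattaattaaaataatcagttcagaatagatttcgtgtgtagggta
Eip74EF: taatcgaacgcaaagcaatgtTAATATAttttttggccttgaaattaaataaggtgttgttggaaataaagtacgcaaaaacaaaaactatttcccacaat
p53: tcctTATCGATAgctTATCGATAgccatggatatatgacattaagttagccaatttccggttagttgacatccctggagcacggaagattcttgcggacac
eEF1gamma: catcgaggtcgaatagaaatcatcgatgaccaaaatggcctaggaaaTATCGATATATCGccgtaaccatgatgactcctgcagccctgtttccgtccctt

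The strongest of these peaks belonged to Ugalt, the gene of a UDP-galactose transporter. Its summit lay 43 bp upstream of the TSS (chrX:2703673-2704126, between coding genes), and the region ranked 2, 2 and 3 by signal among the 30000 regions of replicates 1, 2 and 3. The replicate summits were 45, 30 and 40 bp upstream. CG14100 ranked 3, 12 and 2 in the replicates, with summits 94, 101 and 96 bp upstream of its TSS (chr3L:19590391-19590846). Both were thus near the top of every replicate, with summits within a span of 15 bp or less.

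The peak of larp, a La-related RNA-binding protein, ranked 8, 7 and 15 and lay 335 bp upstream of an internal TSS, in an intron of larp itself (chr3R:28326308-28326864). That of Hsp27, a small heat shock protein, ranked 15, 16 and 18 and lay 149 bp upstream (chr3L:9383644-9384134). Gapdh2, a glycolytic enzyme gene, had ranks of 46, 13 and 52 and summits 155, 157 and 166 bp upstream (chrX:15867738-15868225). The peak of ph-p, a Polycomb group subunit, lay farthest from its TSS among the 12 strongest, at 456 bp, with ranks of 21, 37 and 23 (chrX:2137025-2137617). The other 6 of the 12 strongest, CG18549, CG1888, CG31145, gish, CG13921 and mRpL41, ranked between 11 and 40 in every replicate and lay 119 to 229 bp upstream. The gene gish encodes a casein kinase and mRpL41 a mitochondrial ribosomal protein.

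The pooled signal, the value the authors deposited for each region, spanned 79.7 to 2760 over the 1346 peaks, with a median of 152 and quartiles of 109 and 285. These peaks fell upstream of 1259 TSSs of 1179 genes, and 87 TSSs had 2 of them. The genes ran on the plus strand at 639 peaks and on the minus strand at 707. The TSS was the most upstream one of its gene at 834 peaks (62.0%) and an internal one at 512. Median signal was 153 at internal TSSs and 151 at most upstream ones, and the median distance was 229 bp and 187 bp. Most summits, 720 (53.5%), lay between coding genes, and 464 (34.5%) lay in an intron of the gene itself. A further 75 lay in an intron of another coding gene, 49 in an exon of the gene itself and 38 in an exon of another coding gene. Because only coding TSSs were used, 78 peaks (5.79%) had a noncoding TSS on the opposite strand within 500 bp. The annotation is the set of all transcripts in Ensembl release 115, so a TSS listed there need not be used in prepupae.

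Summits were most frequent 151 to 200 bp upstream of the TSS, where 214 peaks (15.9%) lay, and the median distance was 204 bp (quartiles 119 and 312 bp). Only 106 peaks (7.88%) lay within 50 bp. The replicates' own lists had a median distance of 200 ± 2.31 bp and placed 9.10% ± 1.32 of summits within 50 bp (SD, n = 3). The IDR peaks were set against 2290 pooled regions that met the same rule of position and overlapped no IDR peak. Their signal reached 79.5 at most, since the IDR peaks are the strongest pooled regions. These weaker regions crowded at the TSS, with 421 (18.4%) within 50 bp and 235 (10.3%) at 151 to 200 bp.

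**Figure D1:**
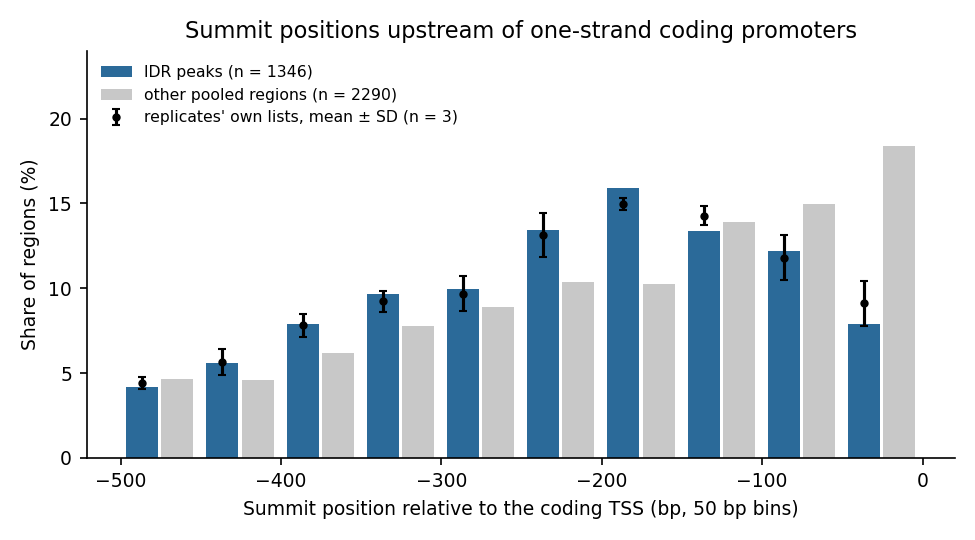
Share of regions (%, vertical axis) in each 50 bp bin of summit position relative to the coding TSS (bp, horizontal axis; the TSS is at 0 and upstream is negative). Blue bars are the 1346 IDR peaks, black points the mean ± SD of the replicates' own lists (n = 3) and grey bars the 2290 other pooled regions; the blue bars are highest at 151 to 200 bp and the grey bars at 1 to 50 bp.

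Within 150 bp of the TSS lay 450 of 1346 IDR peaks (33.4%, 95% Wilson interval 31.0 to 36.0%), against 1083 of 2290 other pooled regions (47.3%, 45.3 to 49.3%). The odds ratio was 0.560 (0.487 to 0.644, p = 2.62e-16, two-sided Fisher's exact test). In the replicates' own lists the share was 34.9%, 35.3% and 35.2%, a mean of 35.2% ± 0.190 (SD, n = 3), and all 3 lay below the share of the other pooled regions. GC content moved with distance in both sets and its part in this difference was not tested: in 101 bp around the summit it averaged 45.8% for IDR peaks and 46.9% for other pooled regions at 1 to 50 bp, and 31.1% and 37.8% at 251 to 300 bp. Regions are not replicates, so this p-value and those below are across regions and not across animals, and the intervals cover the counting of regions only.

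At the outer edge of the rule, the 56 peaks at 451 to 500 bp had a median signal of 136. The 59 IDR peaks that lay 501 to 550 bp upstream of a one-strand TSS, just outside the rule, had a median signal of 140.

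Signal also varied with distance. Its median was 115 for peaks at 1 to 50 bp, 195 at 151 to 200 bp and 136 at 451 to 500 bp. Among the 337 strongest peaks (signal 285 to 2760), 23.4% lay within 150 bp of the TSS and mean GC content was 30.6% ± 7.76 (SD over peaks). Among the 337 weakest (signal 79.7 to 109) these values were 41.2% and 39.0% ± 10.9. Over the 1150 peaks found in all 3 replicates, Spearman's rho of signal was 0.0990 with distance and −0.275 with GC content, given as a description since these peaks share their libraries and their base composition. The width was 440 bp at 829 peaks (61.6%), the commonest value, so width carried little information on shape.

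**Figure D2:**
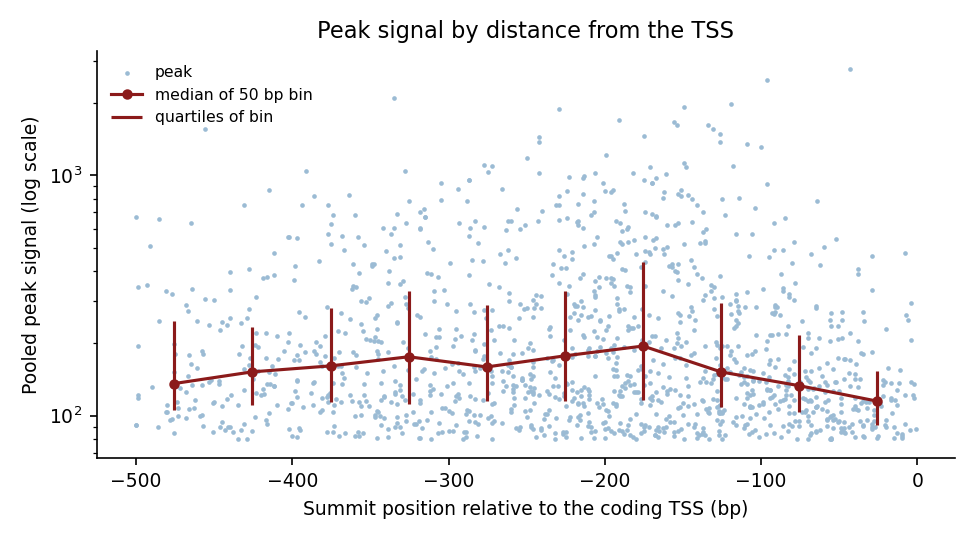
Pooled peak signal (log scale, vertical axis) against summit position relative to the coding TSS (bp, horizontal axis) for the 1346 IDR peaks (light points). Dark points and bars are the median and quartiles of each 50 bp bin; the bin medians lie between 115 at 1 to 50 bp and 195 at 151 to 200 bp, while single peaks span 79.7 to 2760 in overlapping ranges.

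The peaks were found again in single replicates. A summit within 100 bp stood among the 7096 strongest regions of all 3 replicates for 856 peaks (63.6%), of 2 for 314, of 1 for 158 and of none for 18. Each replicate's strongest regions held 83.1% ± 0.904 of the peaks (SD, n = 3). Among all 30000 regions of each replicate, 1150 peaks were found in 3 replicates, 175 in 2 and 21 in 1. The replicate summits of those 1150 had a median SD of 22.05 bp. Since replicate summits were matched within 100 bp of the pooled one, they had to lie upstream for peaks farther than that from the TSS. Of the 226 that lay within 100 bp of the TSS, 186 (82.3%) had all 3 replicate summits upstream. Replicate signals over the 1150 peaks had a Spearman's rho of 0.808 between replicates 1 and 2, 0.866 between 1 and 3 and 0.805 between 2 and 3, again a description across peaks. These lists share the pooled libraries from which the IDR peaks were drawn.

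The 1346 peaks were set against the 735 at divergent promoters and the 328 downstream of one-strand TSSs, with 6 Fisher's exact tests adjusted together by the Benjamini-Hochberg method. They were more AT-rich than the downstream peaks: 587 of 1346 (43.6%) had a GC content below the median of all IDR peaks, against 83 of 328 downstream (25.3%), an odds ratio of 2.28 (1.74 to 2.99, adjusted exact p = 3.64e-09). They were less AT-rich than the divergent ones, of which 376 of 735 (51.2%) were below that median, with an odds ratio of 0.738 (0.617 to 0.884, adjusted exact p = 0.00163). In the replicates' own lists, mean GC content was 35.0% ± 0.749 for upstream regions, 39.2% ± 1.53 for downstream ones and 32.5% ± 0.455 for divergent ones (SD, n = 3). The difference had the same sign in 3 of 3 replicates against both kinds.

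Signal above the median of all IDR peaks was seen in 708 of 1346 upstream peaks (52.6%), against 136 of 328 downstream (41.5%, odds ratio 1.57, interval 1.23 to 2.00, adjusted exact p = 0.000692) and 428 of 735 divergent (58.2%, 0.796, 0.664 to 0.954, adjusted exact p = 0.0176). Support by the strongest regions of all 3 replicates was 63.6%, against 165 of 328 downstream (50.3%, odds ratio 1.73, 1.35 to 2.20, adjusted exact p = 3.79e-05) and 469 of 735 divergent (63.8%, 0.991, 0.822 to 1.19, adjusted exact p = 0.962). In the replicates' own lists the share above the median signal was 52.9% ± 0.612 upstream and 38.6% ± 4.04 downstream (SD, n = 3). The difference was 14.3 ± 4.63 percentage points, with upstream higher in 3 of 3 replicates. Against divergent regions it was −4.01 ± 2.89 percentage points, with upstream lower in 3 of 3. In replicates 1, 2 and 3 this difference was −5.63, −0.674 and −5.73 percentage points.

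Several of these calls rested on the peaks retained. Restricted to peaks in the strongest regions of the other replicates, the odds ratio of signal against downstream peaks was 1.36, 1.13 and 1.18 without replicates 1, 2 and 3 and did not pass (adjusted exact p = 0.0868, 0.496 and 0.348). Shares above the median signal were then 70.6%, 68.9% and 70.5% upstream and 63.9%, 66.3% and 67.0% downstream. Over all IDR peaks of these kinds they were 52.6% and 41.5%, so the restriction itself favoured strong peaks. The IDR list and pooled signal still came from all 3 replicates, so a lost call cannot be assigned to a replicate. Without replicate 2, the odds ratios against divergent peaks were 0.924 for signal (adjusted exact p = 0.496) and 0.819 for low GC content (adjusted exact p = 0.0894), and neither passed. Support was counted differently there, over all IDR peaks and by replicates 1 and 3 alone. It became lower upstream, at 72.2% against 79.6% (0.666, adjusted exact p = 0.000426).

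On the coding strand, base composition around the summit was asymmetric. GC content averaged 33.7% over the 50 bp before the summit and 34.5% over the 50 bp before those, against 39.7% at 251 to 300 bp before the summit. After the summit it was 35.8% over the next 50 bp, 40.2% at 50 to 99 bp and 47.3% at 250 to 299 bp. The AT-rich stretch thus reached farther on the upstream side of the summit than towards the gene. The rule of position put the nearest coding TSS on the gene side, so this asymmetry cannot be separated from the selection. The other pooled regions met the same rule, and their GC content also rose towards the gene. It was 38.6% at 251 to 300 bp before the summit and 45.2% at 250 to 299 bp after it. Over the 50 bp before the summit it was 40.6%, and no dip at the summit was seen. The downstream IDR peaks had one, with 43.0% at 101 to 150 bp before the summit, 37.1% over the 50 bp from the summit onwards and 45.8% at 300 to 349 bp after it. Adenine was highest at 51 to 100 bp before the summit (33.8%) and thymine over the first 50 bp from the summit towards the gene (33.02%). Both were close to these values over the 50 bp before the summit, at 33.3% and 32.96%. Within 50 bp of the summit more thymine than adenine was counted on the coding strand in 668 peaks and more adenine in 623, with 55 ties, a share of 51.7% that did not pass (49.02 to 54.5%, exact binomial test, p = 0.221).

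**Figure D3:**
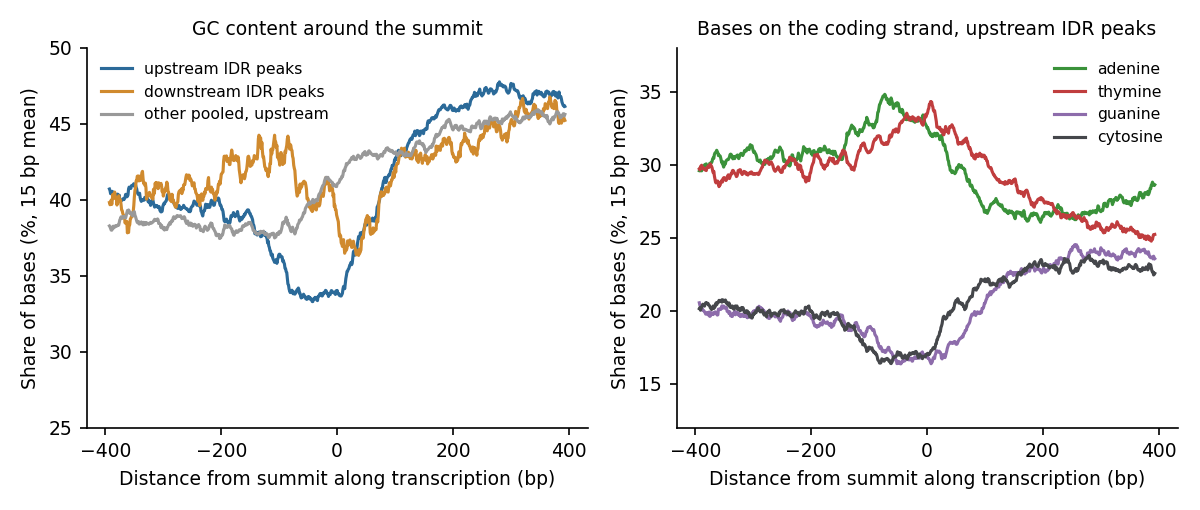
Base composition (share of bases in %, mean over 15 bp, vertical axes) by distance from the summit along the direction of transcription (bp, horizontal axes, the gene is to the right). Left, GC content of the upstream IDR peaks, the downstream IDR peaks and the other pooled regions upstream; right, the 4 bases on the coding strand of the upstream IDR peaks. The upstream IDR peaks are lowest in the 100 bp before the summit, at 34.5% and 33.7% in the 50 bp bins, while the other pooled regions are at 40.6% in the bin before the summit.

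Of 32 motifs searched on both strands, 3 were more frequent within 50 bp of the summit than in a window of the same width centred 300 bp farther upstream, and 2 were less frequent (exact McNemar tests, Benjamini-Hochberg adjusted p under 0.05). TCTTAAA occurred at 82 summits (6.09%) and in 37 flanks (2.75%), adjusted exact p = 0.000872. TAATATA occurred at 105 summits (7.80%) and in 55 flanks (4.09%), with the same adjusted p. Both 7-mers had led an earlier search of these same peaks, so they are not independent evidence. With the other 30 motifs adjusted on their own, as added after the data were seen, 1 passed, the GC box (adjusted exact p = 0.0465), while the BEAF-32 box and the CA repeat did not (adjusted exact p = 0.0597 for both). The BEAF-32 box, the core of the site of the boundary protein BEAF-32, occurred at 191 summits (14.2%) and in 144 flanks (10.7%, adjusted exact p = 0.0382). That call was lost in 9 of 10 alternatives, leaving out each of the replicates among them (adjusted exact p = 0.0121 to 0.839). The GC box CCGCCC of Sp and KLF factors occurred at 21 summits (1.56%) and in 48 flanks (3.57%, adjusted exact p = 0.0165). It passed in 6 of 10 alternatives (adjusted exact p = 9.66e-06 to 0.406). Over the 448 7-mers with 6 G or C bases, the median share was 0.297% at the summit and 0.594% in the flank. The part of base composition in this call was not tested. The CA repeat CACACACA occurred at 26 summits (1.93%) and in 51 flanks (3.79%, adjusted exact p = 0.0325).

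The other 27 motifs did not pass. The DRE, which overlaps the BEAF-32 box in sequence, was at 35 summits (2.60%) and in 16 flanks (1.19%), with an adjusted exact p of 0.0501. The GATA factor site was at 285 summits and in 286 flanks. In windows 150 to 250 bp upstream of all 19253 coding TSSs, TCTTAAA was found in 3.47%, TAATATA in 5.91%, the BEAF-32 box in 15.02%, the GC box in 2.27%, the CA repeat in 1.77% and the DRE in 2.98%. Divergent IDR peaks held TAATATA at 9.25%, TCTTAAA at 5.17% and the BEAF-32 box at 23.5%, and all IDR peaks at 7.91%, 5.61% and 12.5%. The windows of CG14100 and CG31145 printed above hold TCTTAAA on the template strand, and CG31145 holds it on the coding strand too. The windows of p53 and eEF1gamma hold CGATA boxes, and their summits lay 22 and 38 bp upstream of the TSS.

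The count of motifs that passed moved with the peaks and windows taken: 9 passed without replicate 2 and 8 without replicate 3. The CA repeat did not pass without replicate 1 (adjusted exact p = 0.104). The count was 0 with TSSs within 250 bp and 1 in windows of 25 bp on each side, where TCTTAAA alone passed.

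Strand relative to the gene was tested for each motif. Among 20 motifs held on 1 strand only by at least 20 peaks, 0 passed after adjustment (exact binomial tests), and 2 had an unadjusted p under 0.05. These were Motif 7, on the coding strand at 22 peaks and on the template strand at 9 (adjusted exact p = 0.415), and the initiator, at 184 and 146 (adjusted exact p = 0.415). Both were named after their values were seen. TAATATA stood on the coding strand at 48 peaks and on the template strand at 50, and TCTTAAA at 35 and 45.

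The other motifs were searched as follows. Motifs 1, 6 and 7 of fly core promoters, which need degenerate letters, are given by name. The E-boxes were CAGCTG and the palindrome CACGTG, and the GAGA factor site was GAGAG. The TATA box was TATA with C or G before it, followed by A or T, by adenine, by A or T again and by A or G. The initiator was TCA followed by G or T, by thymine and by a pyrimidine. The TCT element was CTTT with a pair of pyrimidines on each side. The pause button was CG after G or T, followed by a purine, by A or T and by a second CG. The homeodomain core was TAATTA, and the GATA site was GATA after A or T and before a purine. The Zelda site was CAGGTA before a purine. The DRE was ATCGAT with A or T on each side. The AP-1 site was TGACTCA or, with the other middle base, TGAGTCA, and the CREB site was TGACGTCA. For ETS factors AGGAAGT and the variant CGGAAGT were sought after a cytosine. Heat shock factor was sought as GAANNTTC, the nuclear receptor half-site as AGGTCA and the STAT site as TTCNNNGAA. For CTCF the core was AGGGGGC or, with the other middle base, AGGTGGC. The Caudal site was TTTAT before G or T and then a purine, and the A tract was AAAAAAA. The Scalloped site was GGAATG, the Su(H) site TGGGAA and the Pangolin site CTTTGA before A or T. Forkhead sites were TATTTAC and the variant TGTTTAC. A match is a string of letters and not a binding site.

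A scan of all 8192 7-mers, with both strands as 1, was added after the data were seen. It gave 28 that differed between summit and upstream flank (0.342% of those tested, exact McNemar tests, adjusted p under 0.05), 23 higher at the summit and 5 lower. Of the 23, 14 held no G or C at all. The lowest p belonged to TTAAAAA, at 208 summits (15.5%) and in 112 flanks (8.32%, adjusted exact p = 5.51e-05), followed by TTTAAAA at 203 (15.1%) and 110 (8.17%, adjusted exact p = 0.000141). Over the 64 7-mers with no G or C the median share was 10.4% at the summit and 7.10% in the flank, so these 7-mers shifted as a class. TAATATA belongs to it and ranked 47 of 64 by its share at the summit.

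Among 7-mers with 3 G or C bases the pattern was different, since 4 of 2240 were higher at the summit while the class median was 0.817% there and 0.892% in the flank. AACACTG stood at 42 summits (3.12%) and in 7 flanks (0.520%, adjusted exact p = 0.000484). CAACACT, which overlaps it, stood at 48 summits (3.57%) and in 15 flanks (1.11%, adjusted exact p = 0.0213). These peaks sat close to the gene: those with AACACTG had a median distance of 68.5 bp and a median signal of 116, while those with TCTTAAA had 231 bp and 172. AACACTG itself lay at a median of 61 bp upstream of the TSS, on the coding strand at 22 peaks and the template strand at 19. Among the other pooled regions AACACTG was held by 2.71% of summits, and TCTTAAA by 2.40%.

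The TSSs downstream of the IDR peaks were compared with 2053 TSSs downstream of other pooled regions for 12 core promoter elements, each sought in its own window (Fisher's exact tests, Benjamini-Hochberg adjusted). Elements that passed as lower were the TATA box (45 to 15 bp before the TSS), at 67 of 1259 TSSs (5.32%) against 173 of 2053 (8.43%), odds ratio 0.611 (0.456 to 0.817, adjusted exact p = 0.00283), and the DRE (150 bp before to 50 bp after), at 5.80% against 10.4%, odds ratio 0.532 (0.404 to 0.700, adjusted exact p = 4.80e-05). The BEAF-32 box in that window was at 28.4% against 34.6%, odds ratio 0.750 (0.644 to 0.874, adjusted exact p = 0.00123). These sets of TSSs were matched neither for summit distance nor for GC content. Summits lay within 150 bp of the TSS for 33.4% of IDR peaks and 47.3% of other pooled regions. The part of either in the differences between elements was not tested.

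Elements that passed as higher were the TCT initiator, at 29 of 1259 (2.30%) against 23 of 2053 (1.12%), odds ratio 2.08 (1.20 to 3.61, adjusted exact p = 0.0225), and CAGCTG, at 17.3% against 13.2% (1.38, 1.13 to 1.67, adjusted exact p = 0.00438). GAGAG was at 42.9% against 38.4% (1.20, 1.04 to 1.39, adjusted exact p = 0.0235), and the pause button, an element of promoters with paused polymerase, at 9.13% against 6.92% (1.35, 1.05 to 1.75, adjusted exact p = 0.0392). The initiator was at 24.5% against 21.8% (adjusted exact p = 0.100) and the downstream promoter element (A or G, G, A or T, C or T, then any base but T) at 37.4% against 35.9% (adjusted exact p = 0.551), and neither passed, nor did Motifs 1, 6 and 7. Around all 19253 coding TSSs the shares were 10.3% for the TATA box, 12.2% for the DRE, 37.1% for the BEAF-32 box, 1.16% for TCT, 14.1% for CAGCTG, 25.6% for GAGAG, 4.14% for the pause button and 14.7% for the initiator. The TATA box was searched here as TATA, A or T, A. With the most upstream TSS of each gene alone, 3 elements passed in place of 7: the TATA box, the DRE and CAGCTG. The TATA box and the DRE passed in all 7 alternatives that recomputed them. With TSSs within 250 bp the odds ratio of GAGAG turned to 0.848 (adjusted exact p = 0.0720), and it was 1.15 without replicate 2 (adjusted exact p = 0.156). The pause button passed in 2 of 7 alternatives, failing without replicates 1 and 2 (adjusted exact p = 0.0645 and 0.156). With 1000 bp neither TCT nor CAGCTG passed (adjusted exact p = 0.125 and 0.0838).

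**Figure D4:**
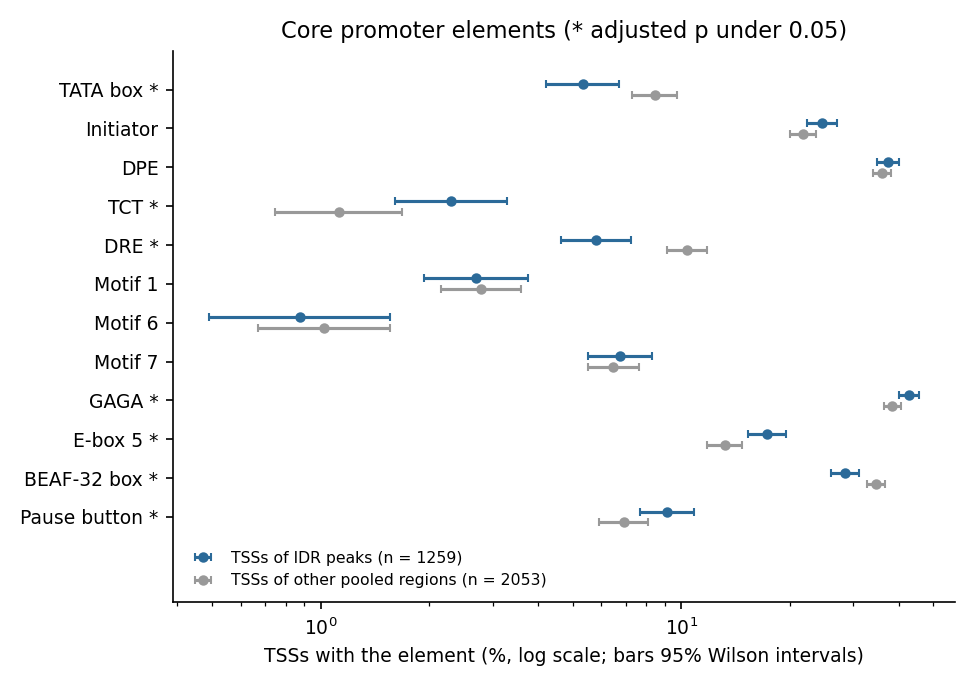
Share of TSSs with each core promoter element (%, log scale, horizontal axis) for the 1259 TSSs of the upstream IDR peaks (blue, upper point of each pair) and 2053 TSSs of other pooled regions (grey, lower point). Bars are 95% Wilson intervals and stars mark an adjusted p under 0.05; TATA box, DRE and BEAF-32 box are lower for the IDR peaks, and the TCT element, the GAGA factor site, E-box 5 and the pause button are higher.

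Of the 29 TSSs with the TCT element, 13 belonged to ribosomal protein genes. Of 23 TSSs of cytosolic ribosomal protein genes, 13 (56.5%) held it, against 16 of 1236 other TSSs (1.29%). The element is known in flies as the initiator of genes for the translation machinery. Windows of 40 bp before to 20 bp after the TSS are shown for RpL8 (chr3L:2587416-2587476, plus strand), RpL7A (chrX:6533236-6533296, minus strand), RpS28b (chrX:9554583-9554643, plus strand) and RpL35 (chrX:5672694-5672754, plus strand), on the coding strand with the TCT element in capitals.
RpL8: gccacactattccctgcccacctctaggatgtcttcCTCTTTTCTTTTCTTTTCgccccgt
RpL7A: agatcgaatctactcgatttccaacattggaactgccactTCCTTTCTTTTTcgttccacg
RpS28b: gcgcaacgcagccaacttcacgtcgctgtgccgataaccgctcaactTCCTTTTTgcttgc
RpL35: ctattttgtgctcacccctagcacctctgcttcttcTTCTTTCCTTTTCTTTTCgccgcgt

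The peaks at ribosomal protein genes sat at the promoter itself. The median distance over the 23 TSSs was 43 bp and the highest 216 bp, and 14 of the 23 lay within 50 bp, where 7.88% of all 1346 peaks lay. Signals ran from 79.8 to 293 with a median of 165 over the genes, against 152 over all 1346 peaks. The peak of RpS10b ranked 1720, 987 and 2438 in replicates 1, 2 and 3, with summits 28, 1 and 21 bp upstream of the TSS. RpL24 ranked 1286, 2008 and 1423, with summits 21 bp upstream, 7 bp downstream and 6 bp upstream. At such short distances the replicate summits fell on both sides of a TSS.

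Of all 13945 protein-coding genes, 1179 (8.45%) had one of these peaks, and 10.03% had an IDR peak at a divergent promoter. Among the 2940 genes with any pooled region under the same rule of position, 40.1% had one that was an IDR peak. In 22 lists of genes, chosen with earlier results of these data known, the share of all listed genes was set beside the 8.45% and was not tested. A further 14 listed symbols had no match in the annotation and are not counted. Cytosolic ribosomal proteins had 22 of 86 genes (25.6%), or 22 of the 33 with a pooled region under the same rule, and 31 had an IDR peak at a divergent promoter. Mitochondrial ribosomal proteins had 2 of 73 (2.74%), mRpL41 and mRpL4, or 2 of the 4 with a pooled region under the same rule. IDR peaks at divergent promoters stood at 22 of the 73.

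Glycolysis had the highest share, 6 of 14 genes (42.9%): Gapdh2, Eno, Hex-A, Ldh, Pgk and Tpi. Their strongest peaks lay 141 to 246 bp upstream, with signals of 146 to 1611. Gapdh2 and Eno, the enolase gene, led. Among the glycolysis genes with a pooled region under the same rule the count was 6 of 8, to be read beside the 40.1% of all such genes. The Eno region ranked 141, 120 and 113 in the replicates, with summits 207, 231 and 197 bp upstream, in an intron of Eno. By contrast, oxidative phosphorylation had 2 of 88 genes (2.27%), the ATP synthase subunit gene blw and the complex I subunit gene ND-B17, and 15 at divergent promoters. Among its genes with a pooled region under the same rule the count was 2 of 14, to be read beside the 40.1%.

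Ecdysone response transcription factors had 7 of 18 genes (38.9%): Sox14, Eip74EF, Eip75B, br, EcR, Eip93F and usp. Sox14, an early target of the hormone, was far ahead of the rest, with a pooled signal of 1442, ranks of 53, 41 and 31 and summits 242, 239 and 225 bp upstream of its TSS. Eip74EF, an ETS factor gene, ranked 2666, 1989 and 1778, with summits 252, 236 and 217 bp upstream. The median signal over the 7 was 118, below the 152 of all 1346 peaks. Of the 18 genes, 15 had a pooled region under the same rule. The count among these was 7 of 15, to be read beside the 40.1% of all genes with such a region. Ecdysone synthesis genes had 0 of 16, with a pooled region at 4.

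For the other lists above the 8.45%, the count among genes with a pooled region, to be read beside the 40.1%, was 4 of 9 for Hippo signalling and for the BTB zinc fingers, 4 of 8 for Wingless, 3 of 7 for Hedgehog and Dpp, 4 of 10 for the cytoskeleton, 3 of 10 for Notch and 9 of 14 for translation factors. Hippo signalling had 4 of 14, led by app and ft, and the BTB zinc fingers 4 of 15, led by lola and psq. Wingless signalling had 4 of 18, led by sgg, the kinase of the pathway, and the Wnt antagonist nkd. Notch signalling had 3 of 15, led by numb, an inhibitor of the receptor, and the co-activator mam. Translation factors had 9 of 51, led by eIF6, with a signal of 1348 and ranks of 37, 72 and 33, and eEF1gamma. The cytoskeleton list had 4 of 23, led by the actin gene Act5C and the tropomyosin gene Tm1, and Hedgehog and Dpp signalling 3 of 18, led by shn and the inhibitor Dad.

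Lists near the share of all genes were apoptosis with 2 of 16, hid and p53, heat shock and chaperones with 3 of 24, disc patterning with 4 of 35 (4 of 25 with a pooled region), led by so and ush, insulator and interband proteins with 2 of 20, BEAF-32 and JIL-1, and Polycomb and trithorax groups with 3 of 32, led by ph-p and ph-d. All 3 heat shock genes, Hsp27, Hsp26 and Hsp22, encode small heat shock proteins. Hsp26 ranked 400, 280 and 345, with summits 137, 120 and 130 bp upstream. Lists below it were autophagy with 1 of 21 (Atg8a), splicing factors with 1 of 31 (sqd), the proteasome with 1 of 48 (Rpn11) and cuticle proteins with 1 of 123 (Cpr72Eb). Divergent IDR peaks stood at 7 genes each of autophagy, splicing and the proteasome and at 0 cuticle genes.

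**Figure D5:**
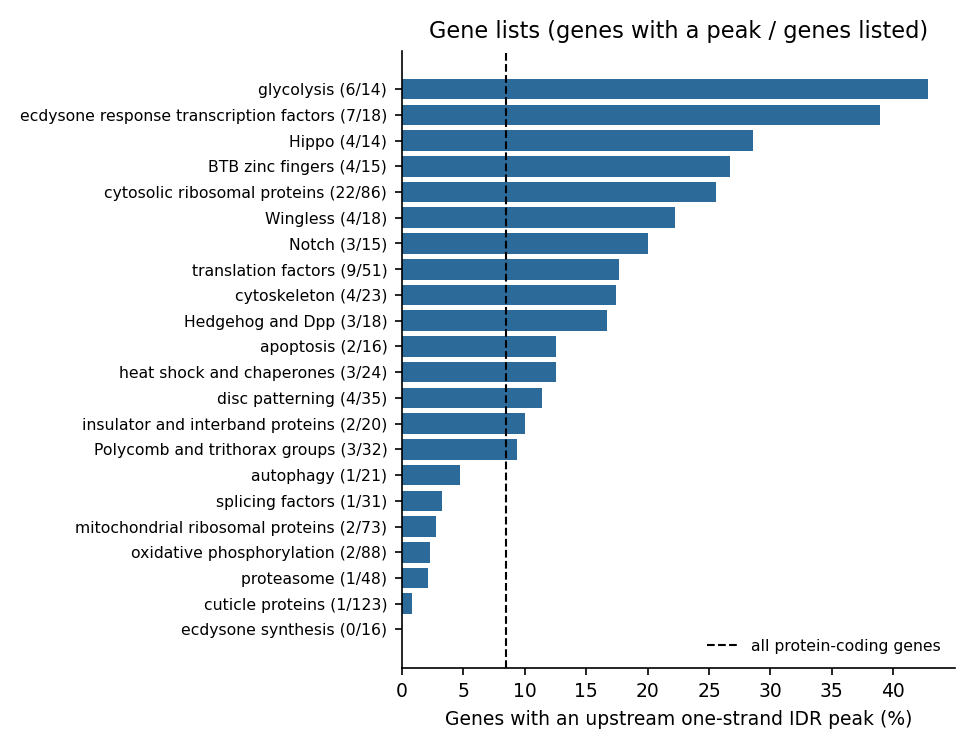
Share of each list's genes with an upstream one-strand IDR peak (%, horizontal axis) for the 22 lists (vertical axis, with genes that have a peak and genes of the list found in the annotation). The dashed line is the 8.45% of all protein-coding genes; glycolysis (6 of 14) and ecdysone response transcription factors (7 of 18) are highest and ecdysone synthesis (0 of 16) lowest.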

How the data were processed

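The 3 replicates and their pool were taken as narrowPeak region lists on dm6. The authors deposited, per the file headers, up to 30000 regions per list as input to IDR and a list of IDR-thresholded peaks. The signal of a region is the value the authors deposited as its signal. Its scale differs between lists, so replicates were compared by rank. A control library entered the calling, per the file headers. Neither aligner and peak caller nor the IDR cut-off is given in the sources used here, and sequencing depth is unknown. The lists on dm3 were not used.

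From these lists, the summit was the region start plus the deposited offset. Annotation was Ensembl release 115, sequence was that of the RefSeq assembly dm6, and code ran on Python 3.11.15, pandas 2.3.3, scipy 1.17.1 and statsmodels 0.14.6. Where 2 TSSs were equally near, the one with the summit upstream was taken. Replicate support was a summit within 100 bp. Tests were two-sided Fisher's, McNemar's and binomial exact tests with Benjamini-Hochberg adjustment at 0.05. Odds ratios carry Woolf intervals of 95%. The motif tests against the flank and by strand were tried on simulated sequences, and the rule of position on made-up coordinates. Summit and flank windows were simulated with the same base composition, so calls caused by a difference in composition could not be seen there. The replicates are 3 biological replicates per the labels.

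Genes named are those of the 12 strongest peaks found in all 3 replicates, the 2 strongest of each list and the strongest in each 100 bp of distance; others were named after their values were seen. The peaks and lists were chosen with earlier results of these data known. Alternatives were other TSS windows (250 and 1000 bp), 1 TSS per gene, peaks above the median signal, other summit windows and flanks, other rules of support and distance, and leaving out each replicate. Leaving out a replicate kept the IDR peaks found in the strongest regions of the other replicates, with the IDR list and pooled signal unchanged.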

Additional observations from a re-analysis of the deposited data

How the results depend on the processing

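Of 66 alternative values with a test, 47 kept direction and side of the threshold, among them all of the distance and of the low GC content against downstream peaks. Of 27 alternative counts, 16 were within 1.5 times the reported one, which does not say that the same motifs or elements passed: without replicate 1, 3 of the 5 motifs were shared. Counts of motifs against the flank were among the 16 only with 1000 bp, with the most upstream TSS of each gene and without replicate 1. The counts by strand among the 16 were all 0, as in the main setting. Adjusted without the preselected 7-mers, an alternative chosen after seeing the data, 1 motif passed. The causes of the changes below were not tested. With TSSs within 250 bp, the odds ratio of support against divergent peaks was 0.596 and passed, 0 motifs passed against the flank and 1 (Motif 7) by strand. With 1000 bp, the odds ratios against divergent peaks were 0.920 for signal and 0.964 for low GC content, and those against downstream peaks 1.23 for signal and 1.23 for support, none of which passed; support against divergent peaks was 1.01. With the most upstream TSS of each gene, 3 core elements passed and the share with more thymine than adenine was 48.8%. Above the median signal, low GC content against divergent peaks was 0.773 and support against downstream peaks 1.25, neither passing, support against divergent peaks 1.36, and 10 motifs passed. Windows of 25 bp on each side gave 1 motif against the flank and 1 by strand (pause button), windows of 100 bp gave 9 and a flank at 200 bp gave 3. A reciprocal overlap of 50% gave 1.04 for support against divergent peaks.

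Leaving out each replicate restricted the IDR peaks to those in the strongest regions of the other replicates, except that support was counted over all IDR peaks. The IDR list and pooled signal still came from every replicate. Odds ratios against divergent peaks were then 0.652 to 0.924 for signal, 0.765 to 0.819 for low GC content and 0.666 to 1.16 for support. Those for signal against downstream peaks were 1.13 to 1.36, and 5 to 9 motifs passed. There the other pooled regions were unchanged. No paired analysis was possible because 1 group holds every sample. Sequencing depth is unknown, so what it limits could not be assessed.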

Other observations

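At the 87 TSSs with 2 upstream IDR peaks, the summits of each pair were 199 to 254 bp apart, with a median of 204 bp. Among all upstream IDR peaks, 81 adjacent ones overlapped, and whether the spacing came from the peak calling was not tested. Such pairs entered the tests of peaks as separate peaks. At 91 genes peaks stood upstream of more than 1 TSS, and at 16 genes upstream of 3 or more. Ptpmeg2, a protein tyrosine phosphatase gene, and Rtnl1, a reticulon gene of the endoplasmic reticulum, had 4 TSSs each with such a peak. At Ptpmeg2 the strongest peak of each TSS lay 182, 206, 195 and 35 bp upstream, with signals of 1018, 1018, 449 and 270, all in introns of the gene. At Rtnl1 they lay 277, 226, 153 and 296 bp upstream, with signals of 1103, 460, 366 and 115. The hormone receptor gene EcR and its targets Eip74EF and Eip75B had 2 such TSSs each. These genes were named after their values were seen. On chromosome 4, 6 of 13 IDR peaks (46.2%) were of this kind, against 21.7% on 2R, 19.2% on 2L, 16.5% on 3L, 19.0% on 3R and 18.8% on X.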
